A study of Homo sapiens with 17 samples.

Results

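The arrays described here are the 2 on which genes of cell division had their lowest signal during induction of NOTCH3IC in the human neuroblastoma line IMR32. They are time 24 of clone c6 and time 12 of clone c8, out of 17 arrays in all. Each was set against the neighbouring times of its own clone, which were times 12 and 48 in clone c6 and times 8 and 24 in clone c8 (4 arrays). NOTCH3IC is the active intracellular part of the receptor NOTCH3, and doxycycline was added to the medium to induce it. The clones are independent ones per the labels. All groups share the line, the medium with fetal calf serum, and the inducible construct. Clone c6 was sampled at times 0, 4, 8, 12, 24, 48, 72, 96 and 120, and clone c8 at the same times up to 96. Each clone and time has 1 array, and the labels give no unit for time. Cells without doxycycline were measured at time 0 alone, and the effects of NOTCH3IC, of doxycycline and of longer culture cannot be told apart. Because the 2 arrays were selected on the signal of cell division genes, their difference from the neighbouring times is described with no test. Nor can fewer dividing cells and less RNA per dividing cell be told apart in such bulk samples.

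A dividing cell copies its DNA in S phase and separates the copies in mitosis, and the genes for each step are transcribed in waves. E2F factors drive genes for DNA replication near the start of S phase. MYBL2 and FOXM1, acting with the MuvB complex, drive genes for mitosis later in the cycle. Promoters of the late genes often carry a cell cycle homology region, or CHR, and CCAAT boxes that bind NF-Y, and the CHR is also where the DREAM complex represses these genes in resting cells. Neuroblastoma cells with amplified MYCN, such as IMR32, typically cycle fast.

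Promoter letters are shown first, because the gene groups with the lowest signal on the chosen arrays differed in them. Each line gives the 180 bases before the annotated start, 5′ to 3′ on the strand of the gene, from RefSeq on GRCh38.p14. Capitals mark every match in that stretch to 3 motifs, searched on both strands. These were the CHR (TTTGAA or TTCGAA), the CCAAT box (CCAAT, or ATTGG where it lies on the other strand) and E2F sites (TTTGGCGC, TTTCCCGC, TTTGCCGC or TTTCGCGC). CDC20, CDK1, CCNB1 and BUB1 followed the rule for named promoters, which asked for a match to at least 1 of the motifs. PLK1 and POLA2 were added after their values were seen. PLK1 was taken as 1 strongly lower mitotic gene. POLA2 was the replication gene of largest fall with an E2F site in the printed stretch. The E2F site of POLA2, and a match in each promoter of the rule, were thus set by the choice.
PLK1 (chr16:23678709-23678888, plus strand): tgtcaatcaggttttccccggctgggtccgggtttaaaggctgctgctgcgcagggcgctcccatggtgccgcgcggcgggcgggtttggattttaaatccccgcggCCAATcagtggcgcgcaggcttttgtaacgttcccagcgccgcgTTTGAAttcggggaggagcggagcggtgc
CDC20 (chr1:43358801-43358980, plus strand): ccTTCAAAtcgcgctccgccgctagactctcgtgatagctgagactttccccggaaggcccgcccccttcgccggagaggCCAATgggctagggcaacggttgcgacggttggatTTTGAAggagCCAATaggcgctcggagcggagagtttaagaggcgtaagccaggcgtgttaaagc
CDK1 (chr10:60778151-60778330, plus strand): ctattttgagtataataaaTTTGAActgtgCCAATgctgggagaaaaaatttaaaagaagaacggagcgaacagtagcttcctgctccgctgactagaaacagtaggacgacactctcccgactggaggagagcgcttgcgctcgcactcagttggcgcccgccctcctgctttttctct
CCNB1 (chr5:69166970-69167149, plus strand): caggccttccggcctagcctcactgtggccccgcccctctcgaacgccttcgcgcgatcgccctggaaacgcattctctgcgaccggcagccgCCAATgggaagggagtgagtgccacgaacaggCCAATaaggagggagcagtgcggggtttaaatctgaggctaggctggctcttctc
BUB1 (chr2:110678064-110678243, minus strand): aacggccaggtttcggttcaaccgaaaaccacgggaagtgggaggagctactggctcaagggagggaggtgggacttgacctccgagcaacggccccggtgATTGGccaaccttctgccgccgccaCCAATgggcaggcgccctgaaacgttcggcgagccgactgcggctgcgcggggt
POLA2 (chr11:65261782-65261961, plus strand): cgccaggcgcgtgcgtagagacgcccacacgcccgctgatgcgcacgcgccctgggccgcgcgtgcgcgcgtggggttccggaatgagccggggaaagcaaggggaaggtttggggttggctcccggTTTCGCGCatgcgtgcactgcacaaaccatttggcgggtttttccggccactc
PLK1 has its CCAAT box 73 bases and its CHR 29 bases before the start. CDC20 has a CHR 65 bases before the start between CCAAT boxes at 100 and 55 bases, and a further CHR at 178 bases. In CDK1 the CHR lies 161 and the CCAAT box 150 bases before the start. The stretches of CCNB1 (87 and 55 bases) and BUB1 (79 and 54 bases) each hold 2 CCAAT boxes. Past the printed stretches, BUB1 has a CHR from base 2 after the start, and CDK1 an E2F site from base 20. POLA2, for a subunit of the polymerase that primes replication, has an E2F site 53 bases before its start.

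In the window from 250 bases before to 50 after the start, 14 of the 18 promoters found for genes of G2 and mitotic entry held a CHR (77.8%). Among kinetochore and spindle genes 31 of 46 did (67.4%), but among replication genes it was 1 of 34 (2.94%). The share over all 27305 promoters in the table was 16.6%. E2F sites showed the opposite order, with 18 of 34 replication promoters (52.9%), 6 of 12 of the G1 to S group (50%), 1 of 18 of the G2 group (5.56%) and 3.33% of all promoters. CCAAT boxes were found in 83.3% of G2 promoters, 69.6% of kinetochore promoters, 61.8% of replication promoters and 35.7% of all. The listed genes all passed a filter on dim genes. Over the 11053 promoters found for genes past that filter, 11.5% held a CHR, 5.13% an E2F site and 36.7% a CCAAT box. Promoters were found for 119 of the 141 cell division genes. Those of the AURKA and FOXM1 genes were not in the table. A match describes letters only, and no binding was measured.

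The genes behind the choice of arrays were not named with it, so 141 cell division genes in 5 lists, all of which passed the filter on dim genes, stand in for them here. Their median signal was 287.7 at time 24 in clone c6, where the next lowest array, time 48, had 435.6. In clone c8 it was 294.6 at time 12, and time 24 followed with 400.7. The median gene stood 0.99 below its own time 0 on the log2 scale in clone c6 and 0.68 below in clone c8. Each chosen array is a single sample, and the other clone, at another time, is its only repeat.

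**Figure D1:**
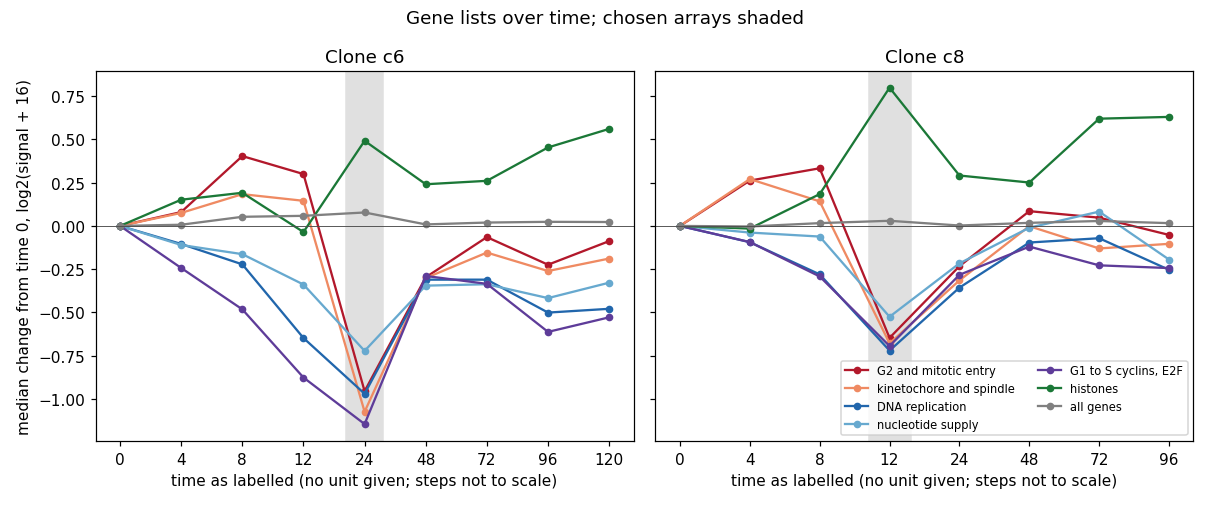
Median change from time 0 of 5 cell division lists, histone genes and all genes, in log2(signal + 16), against time as labelled, for clone c6 (left) and clone c8 (right). Shading marks the chosen array, where all 5 division lists are at their lowest in both clones; the median of the histone genes stands at 0.49 there for clone c6 and 0.80 for clone c8.

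The lists did not reach the low point by the same course. In clone c6 the G1 to S group stood at -0.24, -0.48 and -0.88 relative to time 0 at times 4, 8 and 12, and at -1.15 at time 24. The replication list took the same path with -0.10, -0.22, -0.65 and -0.97. Genes of G2 and mitotic entry instead stood above time 0 at times 8 and 12, by 0.40 and 0.30, and then at -0.96. Kinetochore and spindle genes read 0.18, 0.15 and -1.07 at those times. Clone c8 had the same order one step earlier: the G2 list stood at 0.33 at time 8 and -0.65 at time 12, and the replication list at -0.28 and -0.72. By the next time all 5 lists were higher again, between -0.36 and -0.22 in clone c8 at time 24 and between -0.35 and -0.29 in clone c6 at time 48.

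Most single genes shared this low point. In clone c6, 124 of the 141 (87.9%) had their lowest signal of all times at time 24, against 12.8% of all genes. In clone c8, 129 (91.5%) had it at time 12, against 14.8% of all genes. Both held for 118 of the 141. These counts restate the choice of arrays. Of the 15 genes of the G1 to S group, 9 were lowest at time 24 in clone c6 and 4 were lowest one step before, at time 12, whereas in clone c8 13 of the 15 were lowest on the chosen array. Of the kinetochore list 51 of 52 were lowest at time 24 of clone c6 and 47 of 52 at time 12 of clone c8.

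**Figure D2:**
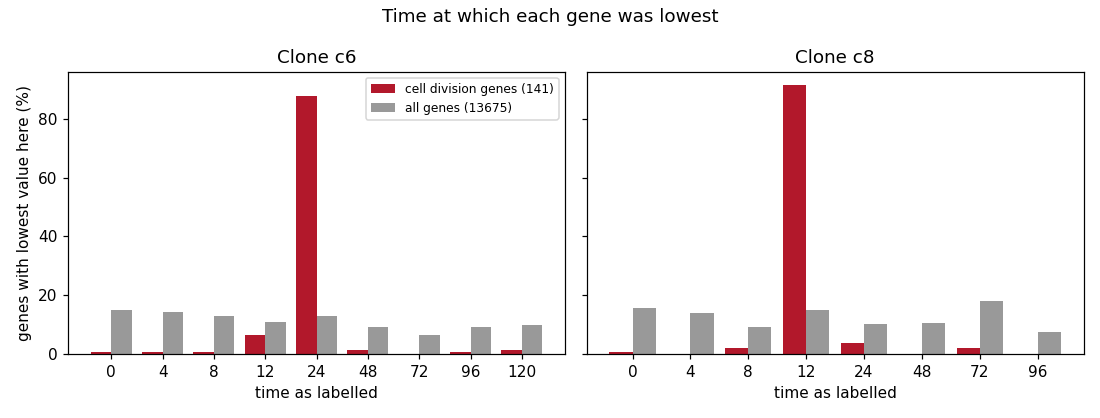
Percentage of genes whose lowest signal fell at each time as labelled, for the 141 cell division genes and for all 13675 genes kept, in clone c6 (left) and clone c8 (right). The bars of the cell division genes stand at 87.9% at time 24 in clone c6 and 91.5% at time 12 in clone c8, the arrays selected on these genes, where the bars of all genes are at 12.8% and 14.8%.

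A gene was counted lower (or higher) on the chosen arrays where it lay below (or above) both neighbouring times in both clones with a fitted difference of at least 0.5 on the log2(signal + 16) scale. By this rule 80 of the 141 cell division genes were counted lower and 0 higher, where 304 of all 13675 genes (2.22%) were counted lower and 397 (2.9%) higher. Because the arrays were chosen on these genes, the first share is no evidence about them. At any size of difference 123 of the 141 lay below both neighbours in both clones. Their median difference was -0.60 (clone c6 -0.69, clone c8 -0.50), against 0.03 for all genes. Without the array of clone c8 at time 12 the counts rest on clone c6 and become 729 lower and 995 higher genes. Without the array of clone c6 at time 24 the higher count is 603, and without time 24 of clone c8 it is 606. Centring the arrays on their medians turns the split into 394 lower and 280 higher.

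**Figure D3:**
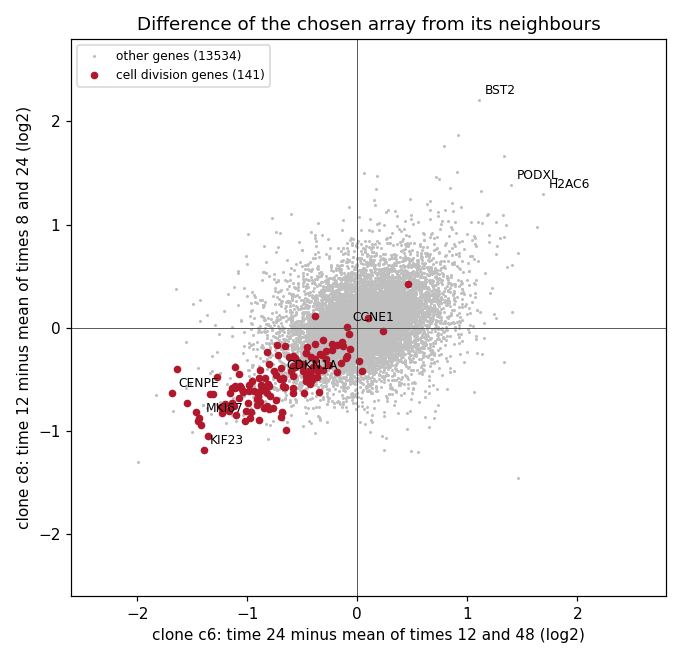
Each gene's difference of the chosen array from the mean of its neighbouring times, in log2(signal + 16), in clone c6 (horizontal) and clone c8 (vertical); red points are the 141 cell division genes and grey points all others. The red points lie mostly at the lower left, and the arrays were selected on them, and BST2, PODXL and H2AC6 lie far out in the upper right.

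Regulators of mitotic entry were low together, with 18 of 24 genes of the G2 list counted lower and a median difference of -0.81. PLK1, the kinase that drives entry into and exit from mitosis, read 236.9, 58.9 and 129.5 in clone c6 at times 12, 24 and 48. In clone c8 it read 566.6, 189.9 and 296.2 at times 8, 12 and 24, so its level was higher throughout that window than in clone c6. Its difference was -1.20 ± 0.43 (SE from the fit over 6 arrays), or 2.30-fold on the scale of signal + 16. CCNB1 encodes cyclin B1, the partner of CDK1 in mitosis, and its signal of 829.7 in clone c6 lay below 2135.1 and 1155.8. In clone c8 1017.0 lay below 2183.3 and 1255.3, a difference of -0.80 ± 0.42. The kinase gene CDK1 read 3080.5, 1201.8 and 2359.5 across the window of clone c6 and 2608.7, 1431.2 and 1905.2 across that of clone c8 (-0.89 ± 0.26). In both clones CCNB1 and CDK1 were only partly back at the later neighbour.

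MKI67, the source of the proliferation antigen Ki-67, had 199.6 at time 24 of clone c6 between 692.8 and 465.3. In clone c8 it had 286.5 between 652.3 and 446.6, and the difference was -1.16 ± 0.32. The other 3 probe sets of MKI67 on the array gave -1.04, -0.98 and -0.91. FOXM1, one of the factors that drive this wave, gave 583.8, 207.4 and 402.4 across the window of clone c6 and 432.2, 188.6 and 270.7 across that of clone c8 (-0.99 ± 0.31). CDC20, an activator of the anaphase-promoting complex, read 540.9 against 1548.3 and 841.5 in clone c6. Its clone c8 value of 632.8 was close to the 695.9 of time 24. The 6 genes of the G2 list that were not counted were PKMYT1, BORA, CKS2, CCNB2, CDC25B and GTSE1, with differences from -0.49 to -0.25. For GTSE1 the probe sets disagreed, since its other 3, less bright, gave -0.81, -0.94 and -0.73 and each met the rule for lower. The 6 are named here after their values were seen.

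Genes of the kinetochore, the spindle and chromosome segregation had 43 of 52 members counted lower and a median of -0.79. KIF23, a kinesin of the midzone needed for cytokinesis, had the largest downward difference of any gene counted. It read 321.2, 85.5 and 194.8 across the window of clone c6 and 267.2, 94.5 and 207.0 across that of clone c8, a difference of -1.29 ± 0.28, or 2.44-fold on the scale of signal + 16. NDC80, which couples kinetochores to microtubules, read 417.5, 97.7 and 198.5 across the window of clone c6 and 407.8, 162.3 and 260.2 across that of clone c8 (-1.18 ± 0.44). AURKB, the kinase that corrects faulty attachments, read 698.2, 190.4 and 426.3 across the window of clone c6 and 685.7, 289.0 and 447.6 across that of clone c8 (-1.17 ± 0.36). For these 3 genes the chosen array of either clone was lower than all 4 neighbouring arrays.

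CENPE and ASPM differed more in clone c6 than in clone c8. The kinesin gene CENPE read 650.1, 120.5 and 273.7 in clone c6 but 204.0, 104.3 and 143.1 in clone c8, differences of -1.69 and -0.64. ASPM, which organises spindle poles, read 2283.7, 537.1 and 1116.2 across the window of clone c6 and 1192.9, 571.2 and 763.6 across that of clone c8. Its fitted difference was -1.14 ± 0.49, and the clones' own were -1.54 and -0.73. The SE of both genes takes in this spread and, to a larger part, the gap between the neighbouring times of each clone. No difference between the clones was tested with 1 array per clone and time. Topoisomerase TOP2A, which untangles sister DNA, read 2132.9, 934.9 and 1439.5 across the window of clone c6 and 1862.7, 1081.9 and 1239.9 across that of clone c8 (-0.69 ± 0.31).

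Among the 40 genes of DNA replication 10 were counted lower, and the median was -0.43. They were MCM4, MCM7, MCM10, CDC45, GINS1, ORC1, RFC3, RFC5, POLA2 and LIG1, which license origins, load the clamp, prime or join DNA. POLA2 read 318.7, 200.7 and 421.4 across the window of clone c6 and 403.2, 239.7 and 358.5 across that of clone c8 (-0.73 ± 0.16). MCM4, a subunit of the replicative helicase, read 564.3, 397.3 and 736.2 across the window of clone c6 and 511.1, 345.1 and 523.8 across that of clone c8 (-0.62 ± 0.14). At time 0 MCM4 had stood at 996.1 and 728.9, so its signal was already lower at the earlier neighbour. MCM2 was below both neighbours in both clones too, with 1300.1 for clone c6 and 1457.5 for clone c8, but its difference of -0.37 ± 0.15 was under the size required. PCNA, the sliding clamp, had its low point in clone c6 one step earlier, with 1000.7 at time 12 and 1211.1 at time 24.

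Nucleotide supply had 3 of 10 genes counted lower with a median of -0.38. RRM2, the regulated subunit of ribonucleotide reductase, read 1161.0, 775.5 and 1588.4 across the window of clone c6 and 1482.0, 922.1 and 1464.2 across that of clone c8 (-0.73 ± 0.16). TYMS, which makes thymidylate, read 2549.9, 1282.7 and 2109.3 across the window of clone c6 and 2493.5, 1405.5 and 1856.6 across that of clone c8 (-0.73 ± 0.19). The third was TK1, thymidine kinase, at -0.62 ± 0.10. IMPDH2, of guanine nucleotide synthesis, went the other way with 2747.5 for clone c6 and 2604.3 for clone c8, above both neighbours in each (0.44 ± 0.24). It is named after its value was seen, as the cell division gene with the highest difference.

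The G1 to S group split, with 6 of 15 genes counted lower (CCNA2, CDK2, CDC25A, E2F7, E2F8 and MYBL2). MYBL2, the activator of the mitotic wave, read 510.9, 173.0 and 499.7 across the window of clone c6 and 584.7, 256.4 and 367.9 across that of clone c8 (-1.14 ± 0.29). CCNA2, cyclin A2, read 717.6, 321.5 and 574.0 across the window of clone c6 and 793.6, 386.2 and 601.5 across that of clone c8 (-0.89 ± 0.18). The E cyclins followed another course in both clones, and E2F1 and E2F2 only in part. CCNE2 had 376.4 and 442.1 at time 0, was lowest one step before the chosen arrays (88.5 in clone c6 at time 12 and 161.0 in clone c8 at time 8), and read 139.8 and 188.2 on them. CCNE1 likewise read 101.2 and then 127.3 in clone c6, and 108.8 and then 135.7 in clone c8. E2F1 had 260.6 and 286.7 at time 0. In clone c6 it read 123.7 at time 12 and 132.7 at time 24, while in clone c8 its 138.6 at time 12 was the lowest of that clone (-0.20 ± 0.18). In clone c6 E2F2 was at its lowest, 39.0, at time 12 and at 64.3 at time 24, but in clone c8 its lowest was 112.7 on the chosen array.

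GMNN and CDKN1A are 2 further regulators with values of their own. Geminin, from GMNN, keeps origins from firing again, and its signal rested at 2817.4 for clone c6 and 3442.1 for clone c8, with 1584.3 and 1753.3 at time 0 (0.10 ± 0.24; named after its value was seen). CDKN1A, the inhibitor p21, read 173.3, 109.3 and 202.1 across the window of clone c6 and 342.8, 208.1 and 250.4 across that of clone c8. That made it the 1 gene of 18 CDK inhibitors and G1 brakes to be counted lower (-0.58 ± 0.18), and 0 were counted higher. CDKN1C, the inhibitor p57, had 175.9 and 196.8 at time 0 and stood at 1682.5 and 2239.8 on the chosen arrays. Its neighbours in clone c6 read 1966.8 and 627.6, those in clone c8 1809.6 and 1105.9, so it was high at or before the low point in both clones but not counted. The cyclin-like gene CCNG2 did the same, with 1192.3 between 1318.6 and 631.4 in clone c6 and 1476.7 between 1087.8 and 821.7 in clone c8. Its probe sets disagreed, since a less bright probe set met the rule for higher (0.52) and the others did not. The same held for GAS1 of this list, with a less bright probe set at 0.73. None of 5 genes for D-type cyclins and their partners was counted, and CCND1 had a difference of -0.03.

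**Figure D4:**
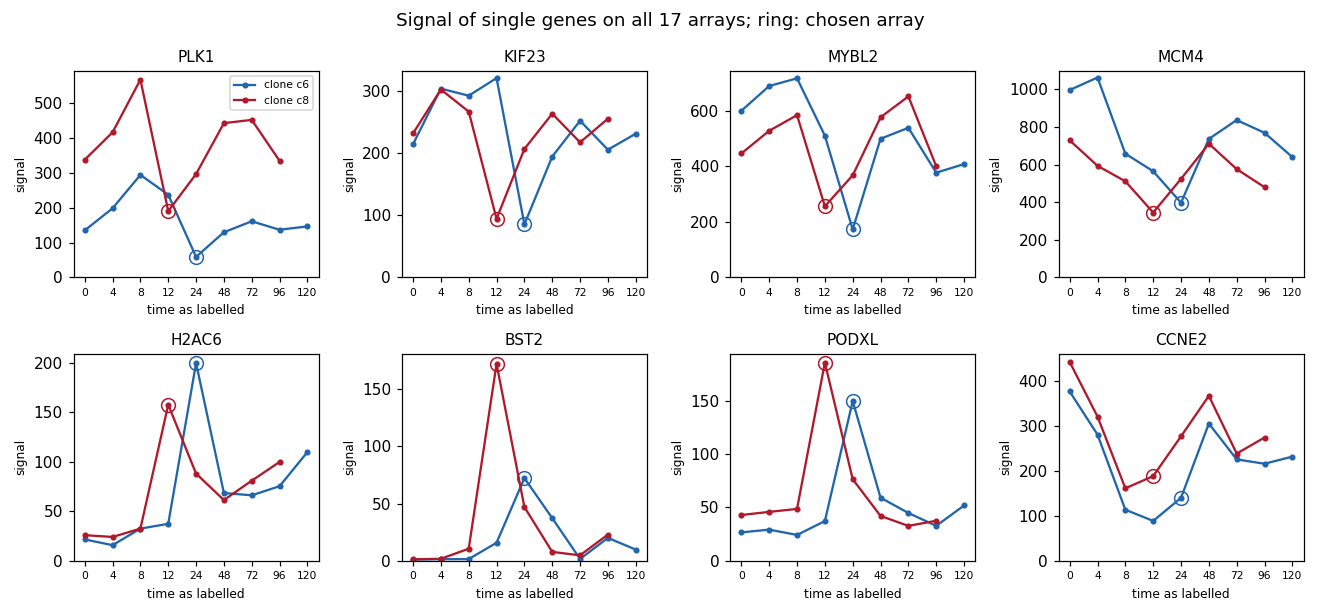
Signal of 8 genes against time as labelled, in clone c6 (blue) and clone c8 (red), 1 array per point, each panel with its own axis from 0; rings mark the chosen arrays. PLK1, KIF23, MYBL2 and MCM4 are lowest at the rings, H2AC6, BST2 and PODXL are highest there, and CCNE2 is lowest one step before, at 88.5 for clone c6 and 161.0 for clone c8.

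Genes of DNA repair and the damage checkpoint, a list outside these 5, had 9 of 18 members counted lower and 0 higher, with a median of -0.51. They come from the same arrays and are likewise described with no test. RAD54L, of homologous recombination, had a difference of -0.83. BRIP1 and FANCI, of the Fanconi anaemia pathway, were at -0.81 ± 0.15 and -0.78 ± 0.21. In the p53 response list 2 of 18 were counted lower, CDKN1A and the damage sensor DDB2 (-0.57), and 0 higher.

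Histone genes went the other way. Of 11 kept, 5 were counted higher and 1, H2AX, lower, and the median was 0.38. H2AC6, a gene for histone H2A, read 37.3, 199.7 and 68.4 across the window of clone c6 and 32.4, 157.7 and 88.0 across that of clone c8, from 21.5 and 25.8 at time 0. The difference was 1.49 ± 0.47, or 2.81-fold on the scale of signal + 16. H2BC5, for histone H2B, read 76.8, 365.3 and 146.5 across the window of clone c6 and 76.9, 246.7 and 176.7 across that of clone c8 (1.30 ± 0.51), and its other probe set gave 1.51. H2BC21 (1.17 ± 0.56), H2BC12 (1.01 ± 0.63) and H4C8 (0.81 ± 0.32) completed the 5. Near-identical histone copies can share probes, so which copy was measured is uncertain. Whether these signals stand for the bulk of histone transcripts was not tested. H2AX, the variant phosphorylated at DNA breaks, read 743.4, 417.1 and 686.9 across the window of clone c6 and 716.8, 381.4 and 611.1 across that of clone c8 (-0.76 ± 0.09). SLBP, which processes replication-dependent histone transcripts, was at -0.13 and was not counted (named after its value was seen).

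BST2, the interferon-inducible membrane protein tetherin, had the largest upward difference counted. Its signal was 1.0 and 1.2 at time 0 in clones c6 and c8. On the chosen arrays it was 72.3 and 172.4, against 15.7 and 37.3 beside them for clone c6 and 10.5 and 47.0 for clone c8 (1.65 ± 0.61). It was thus a peak from near 0 in both clones. BST2 was 1 of 3 of the 14 interferon-stimulated genes counted higher, 0 being counted lower. IFITM1 was at 0.88 ± 0.79 with values of 246.9 and 227.5 at times 24 and 48 of clone c6, so its later neighbour was nearly as high. PODXL, a sialomucin of the cell surface, read 37.1, 149.6 and 59.0 across the window of clone c6 and 48.5, 185.5 and 76.3 across that of clone c8, from 26.5 and 42.8 at time 0 (1.39 ± 0.25). GPER1, a membrane receptor that responds to oestrogen, read 43.4, 71.3 and 20.1 across the window of clone c6 and 12.3, 134.0 and 43.5 across that of clone c8 (1.39 ± 0.53).

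The rest of the 10 largest upward differences were TMEM45A (1.5 ± 0.88), GLB1L3 (1.27 ± 0.48), the collagen VI chain COL6A6 (1.22 ± 0.28), the secreted metalloprotease ADAMTS16 (1.21 ± 0.60) and the semaphorin receptor PLXNC1 (1.20 ± 0.89), besides H2AC6 and H2BC5 above. COL6A6 stood out clearly in both clones, with 630.8 against 227.8 and 346.2 in clone c6 and 901.5 against 287.6 and 424.2 in clone c8. PLXNC1 was still high at the next time, with 157.9 and then 107.5 in clone c6 and 121.7 and then 108.8 in clone c8. On the 6 arrays after the window it lay lower, between 22.3 and 51.1. Of the 397 genes counted higher, 256 had their highest signal of all times on the chosen array in both clones, against 1034 of all 13675 genes. Above time 0 in both clones stood 368 of them, against 5671 of all. Of the 304 counted lower, 225 had their lowest signal on the chosen array in both clones, against 735 of all. Below time 0 in both stood 277, against 4215 of all. To be counted a gene had to lie beyond both neighbours, so the rule itself favours these counts. None of the 397 was in a cell division list, whereas 80 of the 304 were. The 10 largest downward differences held 2 dim genes from outside these lists, MYL10 with 8.1 for clone c6 and 15.4 for clone c8 and CYP3A4, a drug-metabolising enzyme of the liver, with 6.4 and 14.2.

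Known Notch target genes gave 2 of 19 counted higher and 0 lower, with a median of 0.37. HEY2, a transcriptional repressor induced by Notch, read 86.4, 265.9 and 224.9 across the window of clone c6 and 78.3, 454.0 and 340.1 across that of clone c8 (1.10 ± 0.82). HES4 was at 0.61 ± 0.59. NOTCH3 itself, for which the array does not tell the construct from the cell's own gene, read 205.1, 445.7 and 467.3 across the window of clone c6 and 440.0, 780.3 and 1027.7 across that of clone c8. It was therefore higher at each later time of the window, with no peak on the chosen arrays. MYCN, the amplified oncogene of this line, read 4185.2, 4579.7 and 4937.4 across the window of clone c6 and 4544.0, 4565.5 and 4441.8 across that of clone c8 (0.02 ± 0.08). In the list of 13 neuroblast genes and MYCN targets, which holds MYCN itself, 0 were counted either way. The median of that list was -0.13, against 0.03 for all genes. At any size 6 of the 13 lay below both neighbours in both clones, against 1871 of all 13675 genes.

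Several lists for growth and metabolism had no gene counted. Cytoplasmic ribosomal proteins (19 genes, median 0.10), ribosome biogenesis (19 genes, median 0.01), oxidative phosphorylation (20 genes), cholesterol synthesis (15 genes) and immediate early genes (16 genes) each had 0 members counted in either direction. GAPDH was at 0.09 and ACTB at 0.04. In the list of integrated stress and amino acid genes 1 of 20 was counted lower, asparagine synthetase ASNS (-0.54 ± 0.08), and 1 higher, the mTORC1 inhibitor DDIT4 (0.51 ± 0.28). The median of those 20 was -0.21, and 7 of them lay below both neighbours in both clones at any size. Of 22 glycolysis and hypoxia genes 1 was counted lower, the phosphofructokinase gene PFKP (-0.53), and 1 higher, NDRG1 (0.59), with a median of 0.03. Apoptosis genes gave 1 lower, PMAIP1 (-0.72), and 1 higher, BMF (0.64), of 16, both encoding BH3-only proteins. The adrenergic list had DDC higher (0.75) and DBH lower (-0.64), both enzymes of catecholamine synthesis, of 16. Among 21 neurite and synapse genes MAPT (0.74) and DCX (0.56), both for microtubule-associated proteins, were higher.

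Markers of the neuroblastoma line were read as well. Over the 6 arrays MYCN lay between 4185.2 and 4937.4, GATA3 between 3044.8 and 4289.9, PHOX2A between 841.1 and 1598.4 and CHGA between 732.7 and 2082.4. ISL1 (173.6 to 288.7), HAND2 (62.7 to 119.9), DBH (23.4 to 121.2), GAP43 (38.9 to 96.6) and STMN2 (4.3 to 35.6) completed the list. Markers of other cells were looked at on the same arrays. Fibroblast markers (10 on the array, 9 kept) summed to 1775.2, 3859.6 and 5563.5 across the window of clone c6 and 1483.3, 2574.8 and 4298.1 across that of clone c8. The sum was higher at each later time, and COL3A1 made up most of that rise. It read 69.9, 964.4 and 3306.1 across the window of clone c6 and 43.4, 658 and 2473.3 across that of clone c8. Without COL3A1 the sum was highest on the chosen array in both clones. Of the 9 kept, 2 were counted higher, COL1A1 (0.94 ± 0.35) and DCN (0.67 ± 0.42). Glial markers (7 on the array, 2 kept) summed to 129.7 at time 24 of clone c6, between 80.8 and 50, and to 89.2 at time 12 of clone c8, between 46.3 and 45.4. Within that list NGFR carried the difference (1.07 ± 0.25), while SOX10 lay between 1.2 and 4.8 and S100B between 0.4 and 3.1. Immune markers (8 on the array) summed to between 43.3 and 68.9, with PTPRC between 0.5 and 9.4, and endothelial markers (10) to between 72.0 and 103.3. The part of the fibroblast and glial markers in the results was not tested.

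The median signal of the chosen arrays was 17.9 for clone c6 and 17.8 for clone c8, within the 14.6 to 19.3 of all arrays, and each array had been scaled to one trimmed mean. The ratio of 3′ to 5′ actin probes, a sign of RNA quality, was 1.49 at time 24 of clone c6, the highest of that clone, against 1.33 and 1.29 beside it. In clone c8 it was 1.62 between 1.68 and 1.58. For GAPDH the ratio was 1.07 in clone c6 between 1.08 and 0.997, and 1.0015 in clone c8 between 1.02 and 1.02. The part of the actin ratio of clone c6 in the results was not tested.

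Whether the genes returned to their earlier level was tested on the 11 arrays outside the window, which the choice did not use as chosen or neighbouring times. The 6 later arrays (times 72, 96 and 120 of clone c6 and 48, 72 and 96 of clone c8) were compared with the 5 earlier ones (times 0, 4 and 8 of clone c6 and 0 and 4 of clone c8) with limma and a term for the clone. Of the 141 cell division genes 25 (17.7%) fell and 116 did not pass the test, where 512 of all 13675 genes (3.74%) fell and 1073 (7.85%) rose. No cell division gene rose, in limma or without its intensity trend, and at an unadjusted p under 0.05 the counts were 0 rising and 66 falling. The median difference of the 141 was -0.22 against 0.01 for all genes. The fallen genes were 14 of the kinetochore list, 4 each of the replication and G1 to S lists, 2 of the G2 list and 1 of nucleotide supply. The count was 13 without time 96 of clone c6, 14 without time 120 of clone c6, 13 without the clone term and 15 without the trend. The 512 became 332 without time 96 of clone c6 and 316 without the clone term. Median centring changed 1073 rising and 512 falling genes to 849 and 775.

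E2F7, a repressor among the E2F factors, had the smallest adjusted p of the 141 cell division genes. It read 442.6, 377.4 and 312.3 at times 0, 4 and 8 of clone c6 and 392.7 and 361.3 at times 0 and 4 of clone c8. Afterwards it lay between 238.4 and 279.9 with a median of 258, so the groups did not overlap (-0.53 ± 0.09, limma adjusted p = 0.000898). NUF2, a partner of NDC80 at the kinetochore, lay between 1708.8 and 2050.5 before and between 1219.8 and 1599.0 after (-0.38 ± 0.08, limma adjusted p = 0.00362). MKI67 lay between 573.3 and 736.9 before and 434.2 and 578.0 after, an overlap of the 2 ranges at their edge (-0.41 ± 0.09, limma adjusted p = 0.00660). The replication factor MCM10 moved from between 559.7 and 652.2 to between 412.8 and 530.3 (-0.33 ± 0.08, limma adjusted p = 0.0147). For the other genes that fell, the difference ran from -0.53 for SGO1 to -0.26 for RRM1.

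Several genes with the largest differences in the window did not pass this test. KIF23 differed by -0.16 (limma adjusted p = 0.407), PLK1 by -0.17 (limma adjusted p = 0.580) and CCNB1 by -0.20 (limma adjusted p = 0.411). That does not show that their levels were equal. CDKN1A fell (-0.45 ± 0.10, limma adjusted p = 0.00772), as did CDKN1B, the inhibitor p27 (-0.38, limma adjusted p = 0.0173).

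Of the 11 histone genes 5 rose after the window and 6 did not pass the test, where 1073 of all 13675 genes (7.85%) rose. H2AC6 lay between 15.7 and 32.4 before and between 61.3 and 109.8 after (1.29 ± 0.15, limma adjusted p = 9.45e-06). H2BC21 lay between 39.6 and 78.1 before and 93.8 and 148.0 after (1.15 ± 0.13, limma adjusted p = 6.35e-06). Their later levels were nonetheless below the 199.7 and 235.1 of clone c6 and the 157.7 and 215.2 of clone c8 on the chosen arrays. BST2 (0.58, limma adjusted p = 0.0730) and PODXL (0.18, limma adjusted p = 0.502) did not pass the test, while TMEM45A (2.58, limma adjusted p = 9.68e-08) and GPER1 (1.25, limma adjusted p = 7.70e-06) rose. Of the 397 genes counted higher in the window 141 rose and 1 fell, and of the 304 counted lower 57 fell and 7 rose. Among all 13675 genes 7.85% rose and 3.74% fell. Across all genes the largest rises were the matrix and contractile genes COL3A1 (7.30), ACTA2 (6.30) and TAGLN (5.26), the Notch ligand JAG1 (5.02) and RGS5 (4.93). DBH (-2.26) fell furthest, followed by CKM (-1.59), NPTX1 (-1.59), NWD2 (-1.39) and CDH7 (-1.35).

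The median over the 141 cell division genes was -0.31 for clone c6 and -0.09 for clone c8. In limma's interaction of clone and phase 0 of the 141 differed between the clones after adjustment over all genes, and 29 had an unadjusted p under 0.05. Over all 13675 genes 2 passed and 1401 had an unadjusted p under 0.05.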

How the data were processed

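RNA of the IMR32 clones was hybridised to 17 Affymetrix arrays. The authors deposited intensity values on a linear scale; MAS5 and GCOS are the tools listed, with no version, per the submitters' processing notes. The values show that each array was scaled to one 2% trimmed mean of 100.01. Of 54675 probe sets, 41097 had 1 gene symbol, 1801 several and 11777 none listed in the platform annotation; the RefSeq table held 41043 of the 41097. Intensity was used as log2(value + 16), a scale that shrinks differences of dim genes. Each gene was taken from its brightest probe set and kept at or above the 40th percentile of mean level (4.68), which left 13675 of 19775 genes. The 6 arrays of the window were fitted with limma 3.58.1 in R 4.3.3 (lmFit, clone as a term, 3 residual degrees of freedom), giving differences and SE and no p-value. The 11 other arrays were tested with lmFit and eBayes with trend (8 residual degrees of freedom), Benjamini-Hochberg over all genes kept, threshold 0.05. Arrays of different times serve as replicates here. Nothing in the labels says that they came from separate cultures, and their spread, on which the p-values rest, may be technical. The clone, given by the labels, pairs the arrays. The script was tested on simulated data.

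The arrays, lists and settings were chosen with earlier results of these data known. Named genes are the 10 largest falls and rises counted in the window, the 4 largest differences per list, a list of 39 genes fixed by name, and, after the window, the 5 largest each way and the cell division genes past the threshold; others are said to be named after their values were seen or only listed as counted members. BTG2, fixed by name, did not pass the filter. Alternatives were other pseudocounts, scalings, filters and sizes, the mean of probe sets, no clone term, no trend, either clone by itself and leaving out single arrays. The number of arrays limits the precision. Scanner files were not used here.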

Additional observations from a re-analysis of the deposited data

Results flagged for a closer look

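Among genes compared after against before the window, 2 differed between the clones in limma's interaction of clone and phase, and both are named because they passed it. CHST2, a sulfotransferase gene, went from 1510.6, 1355.3 and 1496.8 to 686.8, 544.3 and 551.2 in clone c6, but from 484.6 and 480.7 to 424.0, 485.1 and 479.2 in clone c8. Its difference in clone c8 minus that in clone c6 was 1.21 (limma adjusted p = 0.0124). CLSTN2, for a calsyntenin of the synapse, went from 179.2, 151.2 and 172.3 to 30.9, 37.3 and 31.9 in clone c6 and from 37.4 and 35.9 to 29.6, 23.6 and 26.8 in clone c8 (1.59, limma adjusted p = 0.0124). Both genes began at a lower signal in clone c8. CLSTN2 was also counted lower in the window (-0.97 ± 0.47).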

How the results depend on the processing

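The median difference of the cell division genes in the window kept its sign under all 10 alternatives, between -0.69 and -0.50. Genes counted lower in the window became 488 with a pseudocount of 1, 149 with 64, 200 with the mean of probe sets, 21 at a size of 1 and 729 in clone c6 alone. Genes counted higher became 799, 109, 244, 24 and 995 under the same settings, 249 with a filter at the 60th percentile and 603 in clone c8 alone. Cell division genes counted lower became 12 at a size of 1. The cause was not tested beyond what each setting does. With each array left out in turn these 3 counts lay between 333 and 729, 423 and 995, and 70 and 93, and the median between -0.69 and -0.50. After against before, median centring gave 775 falling genes. The fit without the clone as replicate block gave 316 falling genes and 13 falling cell division genes; eBayes without trend gave 15 of the latter. With arrays left out, 892 to 1219 genes rose, 332 to 642 fell, 13 to 36 cell division genes fell and their median lay between -0.24 and -0.18. The cause was not tested.

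The window has 1 chosen array per clone, and the SE rests on 3 residual degrees of freedom. Dim genes, such as MYL10, CYP3A4 and BST2 at time 0, have signals near those of absent markers. The arrays carry no counting depth.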
